A study of Mus musculus with 16 samples.

Results

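The comparison described here is that of ESAM-high with ESAM-low classical dendritic cells from the spleen of WT mice. It used 4 of the 16 RNA-seq libraries of the study, 2 named Esamhi and 2 named Esamlo in the labels, each of genotype WT. The members are all genes expressed in the study, which were 13790 of the 24116 genes in the count table. The series studies Etv6, an ETS-family transcription factor, in dendritic cells sorted from mouse spleen as 4 subsets (Dec205, pDC, Esamlo and Esamhi), each as WT and as CKO, the Etv6-deficient genotype named in its design text. No treatment is given in the labels for any group. The labels give neither the sort gates nor the age and strain of the mice, the driver of the deletion or the number of mice pooled. They also leave unsaid whether the pair of libraries in each group stems from different mice. Every p-value below rests on how far such pairs differed, estimated over all 8 groups of the fit. That spread could be technical variation.

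Classical dendritic cells of type 2 (cDC2) take up antigen and present it on MHC class II to CD4 T cells. In the mouse spleen they are commonly divided by the adhesion molecule ESAM. ESAM-high cells are known to depend on signals through the Notch2 receptor, to lie in the bridging channels of the marginal zone and often to carry CD4. ESAM-low cells share several genes with monocytes, among them those of lysozyme, CCR2 and the receptor for M-CSF. Notch receptors are cleaved after binding a ligand on a neighbouring cell, and the freed intracellular part joins the DNA-binding protein RBPJ at target genes such as Hes1 and Dtx1.

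The 4 libraries held 14982885 to 19578517 counts, which set the precision of the low genes. In them 3 counts corresponded to 0.156 to 0.199 CPM, which are counts scaled to a common library size. No floor was applied, and a gene without counts is given as 0 CPM. The 2 Esamlo WT libraries lay further apart than the 2 Esamhi WT libraries, with biological coefficients of variation of 20.6% and 12.8%. For the Dec205 and pDC WT libraries, which share the fit, they were 41.5% and 31.2%. In a principal component analysis of the 8 Esamhi and Esamlo libraries of both genotypes, the first component held 36.1% of the variance and set all 4 Esamhi libraries (28.7 to 42.7) apart from all 4 Esamlo libraries (-60.3 to -26.7). The value of -60.3 was that of Esamlo WT library 2, which stood apart from the other 3 Esamlo libraries (-29.3 to -26.7). Each count given first was therefore also computed without each library.

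Of the 13790 genes tested, 801 differed between the subsets at an adjusted p under 0.05 in edgeR's quasi-likelihood test (5.81%). Of these, 375 (2.72%) were higher and 426 (3.09%) were lower in Esamhi. These shares over all tested genes are the background for every list count below. All lists were chosen with earlier results of these data known, so a list share above the background is not independent evidence. The difference was at least 2-fold for 139 of the higher genes (1.01% of all tested) and 216 of the lower genes (1.57%). The median log2 fold change over all tested genes was 0. At an unadjusted p under 0.05 in edgeR's test there were 2571 genes, and DESeq2 called 1404, of which 657 were lower. These are the background for list counts by those 2 measures. In all 801 genes both libraries of one subset lay beyond both of the other, as they did in 53.9% of all tested genes. The count fell to 510 without Esamlo library 1, to 354 without Esamlo library 2, to 309 without Esamhi library 1 and to 402 without Esamhi library 2, and it was 1404 with DESeq2.

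**Figure D1:**
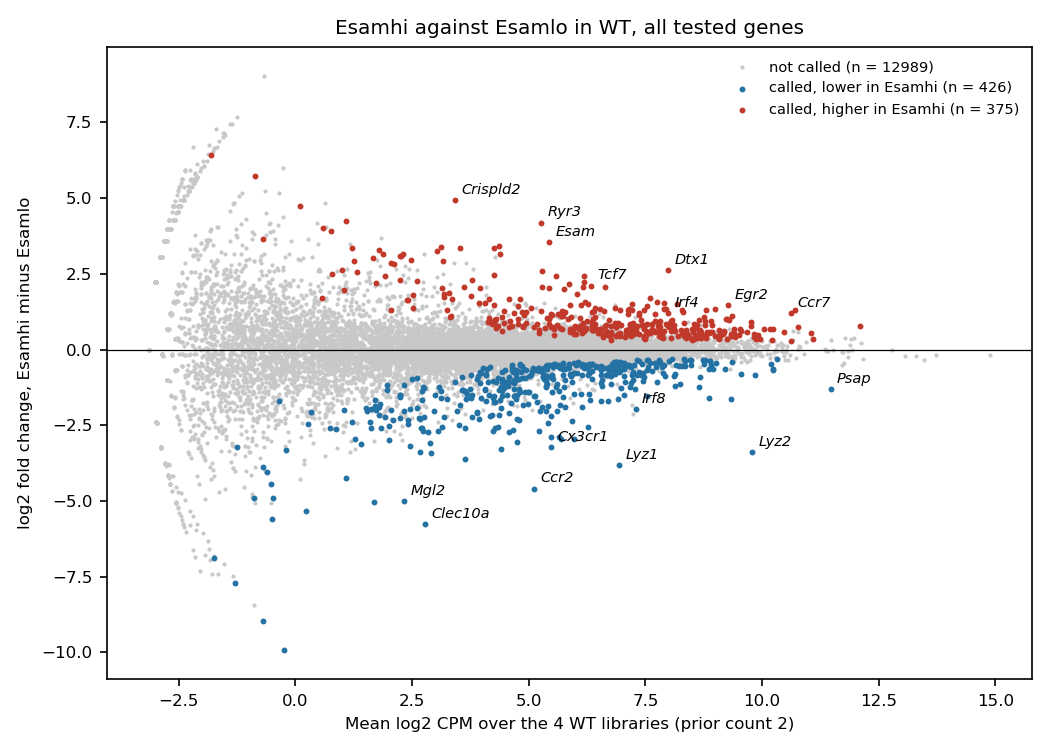
Each point is 1 of the 13790 tested genes. The x axis gives its mean log2 CPM over the 4 WT libraries and the y axis its log2 fold change, Esamhi minus Esamlo; the 375 genes called higher are red, the 426 called lower are blue, and genes not called are grey. At mean log2 CPM values above 5, Ryr3 and Esam stand highest and Ccr2, Lyz1 and Lyz2 lowest; points beyond 6 on either side have mean log2 CPM values below 0.

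Esam, which encodes an adhesion molecule of the immunoglobulin superfamily and gives the subsets their names (chr9:37528089-37538319, GRCm38), was measured at 144 and 151 CPM in the Esamhi libraries and at 13.7 and 11.5 CPM in the Esamlo libraries. The subsets did not overlap, and the difference was 11.7-fold (log2 fold change 3.55 ± 0.18 SE, adjusted p = 3.68e-06). Lyz2, which encodes lysozyme of macrophages and neutrophils (chr10:117277541-117282272), ran the other way, at 286 and 263 CPM in Esamhi and 3268 and 2512 CPM in Esamlo, and was 10.5-fold lower in Esamhi (log2 fold change -3.40 ± 0.34 SE, adjusted p = 0.000106). Esam and Lyz2 kept their calls without any 1 of the 4 libraries. Since the subsets are named for ESAM, the Esam difference checks the labels and is no finding.

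The libraries were checked against some genes of cDC2 or of classical dendritic cells in general. Sirpa, a receptor for CD47 on cDC2, was at 1403 ± 102 CPM (mean ± SD, n = 2) in Esamhi and 1336 ± 4.64 in Esamlo. Itgax, which encodes CD11c, was at 898 ± 42.9 and 874 ± 6.48 CPM, and neither gene was called (adjusted p = 0.943 and 0.939). Zbtb46, a transcription factor of classical dendritic cells, was at 227 ± 37.8 and 148 ± 34.5 CPM (adjusted p = 0.052). In the Dec205 libraries Sirpa was at 57.4 CPM. Other cDC2 genes did differ, with Irf4 called higher in Esamhi (adjusted p = 0.0414) and Clec7a lower (adjusted p = 0.000975), both described below. Cd4, the co-receptor carried by many ESAM-high cells, was 2.48-fold higher in Esamhi, at 293 and 266 CPM against 125 and 100.2 CPM (log2 fold change 1.31 ± 0.20 SE, adjusted p = 0.00215). Of the cDC2 identity list 14.8% were called higher and 25.9% lower, against 2.72% and 3.09% of all tested genes. Among the 27 genes of the cDC2 identity list, 4 were higher and 7 lower, with a median log2 fold change of 0.07, and these became 2 or 3 higher and 3 or 4 lower without 1 library in turn.

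A list of 20 genes known from ESAM-high cDC2 had 7 members higher (35%, against 2.72% of all genes) and 0 lower in Esamhi, with a median of 0.74. The list was drawn up with earlier results of these data known, so its direction is not independent evidence. Besides Esam and Cd4 these were Dtx1, Adam23, Nr4a2, Nr4a3 and Gpr183. Adam23, a catalytically inactive ADAM protein that binds integrins, was at 499 and 475 CPM in Esamhi and at 174 and 170.5 CPM in Esamlo, 2.83-fold apart (adjusted p = 0.000267). Gpr183 encodes EBI2, the oxysterol receptor that guides these cells to the bridging channels; named after its values were seen, it was 1.43-fold higher (adjusted p = 0.0184). Gpr183 and Nr4a3 lost their calls without each of the 4 libraries and Nr4a2 without any but Esamhi library 2 (adjusted p up to 0.172, 0.218 and 0.105). Members that were not called included Tbx21, which encodes T-bet (96.9 against 56 CPM, adjusted p = 0.444), and the maturation marker Cd83 (4565 against 3510.1 CPM). Clec4a4, which encodes DCIR2, the antigen of the 33D1 antibody, was not called either (196 against 125 CPM, adjusted p = 0.383). With edgeR on only the 4 libraries of the comparison, Tbx21, Cd83 and Clec4a4 were called higher (adjusted p = 0.0296, 0.00498 and 0.00233). The list then had 12 members higher and 2 lower, and with DESeq2 9 higher and 2 lower. The 7 members became 5 without Esamhi library 2 and 4 without each of the other libraries.

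Among the 15 genes with the largest rises at a mean log2 CPM of at least 3 and without overlap between the subsets, Crispld2 stood first. It encodes a secreted protein with LCCL domains and was at 55.1 and 61 CPM in Esamhi against 1.99 and 1.79 CPM in Esamlo, 30.5-fold apart (log2 fold change 4.93 ± 0.31 SE, adjusted p = 3.78e-06). The Dec205 WT libraries had a mean of 38.1 CPM for it. Ryr3, a ryanodine receptor that releases calcium from the endoplasmic reticulum, was at 173 and 159 CPM against 10.7 and 7.37 CPM, 18.3-fold apart (log2 fold change 4.20 ± 0.38 SE, adjusted p = 5.38e-05). In the Dec205 and pDC libraries Ryr3 averaged 8.07 and 0.492 CPM, below both Esamhi libraries. Several of the 15 serve calcium or membrane excitability. Cacnb3, the beta subunit of voltage-gated calcium channels, was at 107 and 117 CPM against 22.7 and 18.7 CPM (log2 fold change 2.44 ± 0.22 SE, adjusted p = 5.62e-05), with 520.3 CPM in Dec205. Ncald, a neuronal calcium sensor, was at 43 and 37.1 CPM against 6.08 and 1.66 CPM (log2 fold change 3.36 ± 0.48 SE, adjusted p = 0.00161). Scn3a, the alpha subunit of a voltage-gated sodium channel, was at 59.1 and 61.5 CPM against 5.91 and 5.78 CPM (adjusted p = 0.0201). No list of ion channel genes was tested, and the grouping of these 4 was made after their values were seen.

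Dtx1, the Notch-induced ubiquitin ligase Deltex, was at 629 and 622 CPM in Esamhi and 99.3 and 105 CPM in Esamlo (log2 fold change 2.62 ± 0.39 SE, adjusted p = 0.00162), and averaged 5.72 and 6.61 CPM in Dec205 and pDC. Lad1, an anchoring filament protein of epithelial basement membranes, was at 58.1 and 64.6 CPM against 7.39 and 6.44 CPM. Prnp, the prion protein gene, was at 87.9 and 103 CPM against 14.3 and 17.3 CPM. For both genes the Dec205 libraries had means above Esamhi, 140.3 and 137 CPM, and the same held for Asprv1, a retroviral-like aspartic protease (Esamhi 22.6 and 26.1, Esamlo 3.07 and 3.39, Dec205 131 CPM). Jchain, the joining chain of polymeric immunoglobulins, was at 209 and 132 CPM against 32 and 30.8 CPM (log2 fold change 2.44 ± 0.37 SE, adjusted p = 0.00201). Its level was 1351 CPM in pDC, which carry it as well. Mmp9, the gelatinase that degrades type IV collagen, was at 89.1 and 54.7 CPM against 9.49 and 3.72 CPM, and the libraries within both pairs lay far apart. Pglyrp2, a peptidoglycan-cleaving amidase, was 5.55-fold higher, and the adhesion genes Igsf3 and Cdhr3 were 10.6-fold and 9.5-fold higher. Of the 15 genes, 10 kept the call without any 1 library. Scn3a and Cdhr3 lost it without each of the 4 (adjusted p up to 0.16 and 0.271), Mmp9 and Igsf3 without Esamlo library 2 or Esamhi library 1 (up to 0.0857 and 0.104) and Pglyrp2 without Esamlo library 2 (0.0536).

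**Figure D2:**
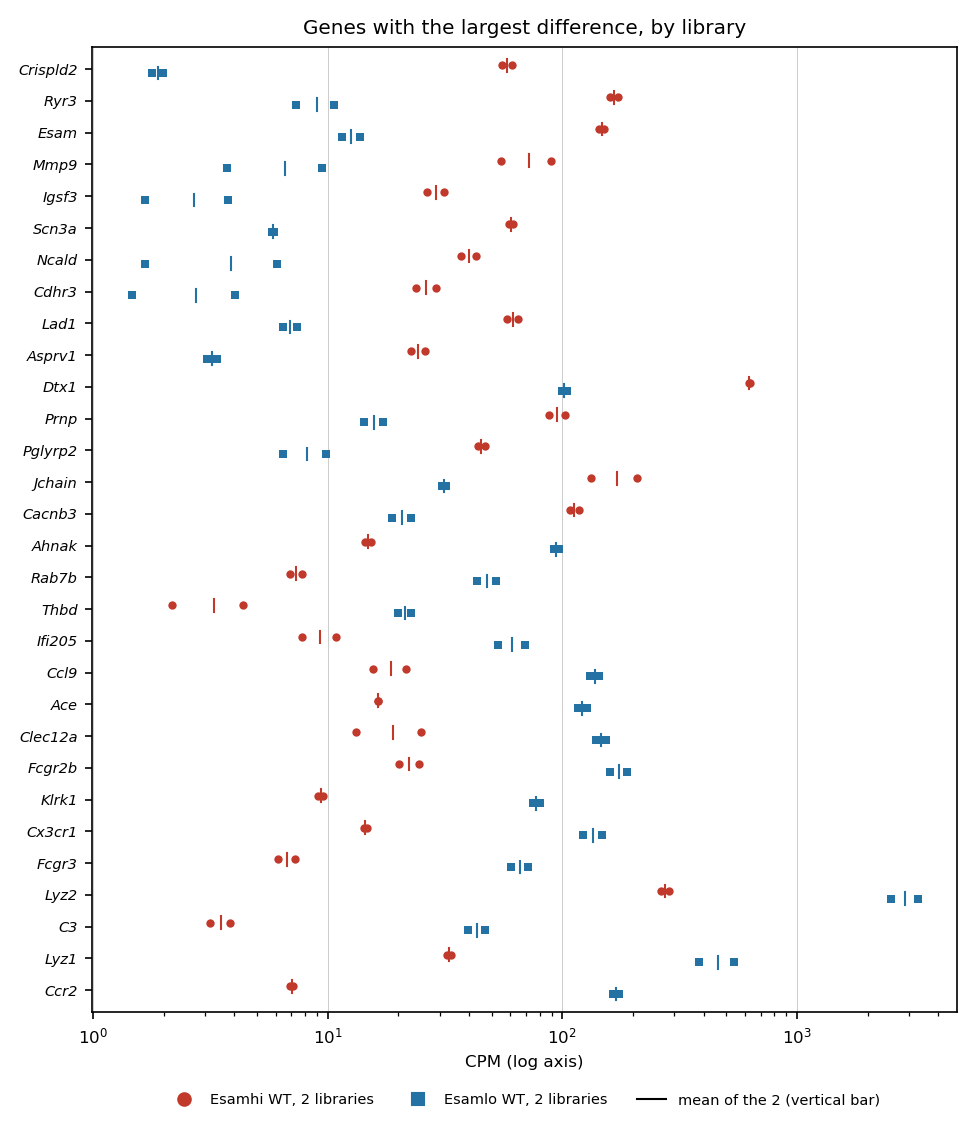
Level of the 15 genes with the largest rises and the 15 with the largest falls in each WT library, in CPM on a log axis, ordered by log2 fold change; red circles are the 2 Esamhi libraries, blue squares the 2 Esamlo libraries and vertical bars their means. The 2 subsets do not overlap in any of the 30 genes because only genes without overlap could be chosen. Ncald and Cdhr3 have the widest spread within Esamlo.

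Among the 15 largest falls, chosen by the same rule, Ccr2 stood first. It encodes the chemokine receptor that brings monocytes out of the bone marrow and was at 7.14 and 6.9 CPM in Esamhi and 174 and 164 CPM in Esamlo, 24.1-fold lower (log2 fold change -4.59 ± 0.19 SE, adjusted p = 1.32e-07). Cx3cr1, the fractalkine receptor of monocytes and macrophages, was at 14.6 and 14.3 CPM against 148 and 123 CPM (adjusted p = 0.0234). Lyz1, the lysozyme gene next to Lyz2, was at 33.4 and 32.1 CPM against 541 and 383 CPM (log2 fold change -3.82 ± 0.33 SE, adjusted p = 4.35e-05). The 2 lysozyme genes are near-identical neighbours on chromosome 10, and how reads that match both were counted is not given in the sources used here, so their separate values are uncertain. Clec12a, an inhibitory C-type lectin of myeloid cells, was at 13.2 and 25 CPM against 139.6 and 153 CPM (log2 fold change -2.94 ± 0.24 SE, adjusted p = 2.83e-05). Klrk1, which encodes the NKG2D receptor, was at 9.53 and 9.13 CPM against 74.9 and 80.2 CPM (log2 fold change -3.05 ± 0.40 SE, adjusted p = 0.000736). Ace, angiotensin-converting enzyme, was at 16.4 and 16.3 CPM against 116 and 127 CPM, and Thbd, thrombomodulin, at 4.37 and 2.18 CPM against 19.9 and 22.8 CPM. Ahnak, a very large scaffold protein under the plasma membrane, was at 15.2 and 14.4 CPM against 96.9 and 91.9 CPM (log2 fold change -2.67 ± 0.17 SE, adjusted p = 4.15e-06). Rab7b, a small GTPase of late endosomes, and Ifi205, an interferon-inducible DNA-binding protein, were 6.48-fold and 6.57-fold lower in Esamhi; both were far higher in Dec205, at 987 and 766 CPM, than in Esamlo, at 47.8 and 61 CPM. Of the 15 falls, 13 kept the call without any 1 library. Cx3cr1 and the complement gene C3 lost it without each of the 4 (adjusted p up to 0.203 and 0.233).

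The promoter windows of these genes were read for 4 short motifs of factors that the results below concern. The motifs were GTGGGAA for RBPJ, TTGCNNAA for C/EBP factors, GGAA followed after any 2 bases by GAAA for the ETS-IRF composite bound by PU.1 with IRF4 or IRF8, and AAAGGTCA for the NR4A factors, each on both strands, and matches of different motifs may overlap. Windows reach from 250 bases before to 50 bases after the start in RefSeq (GRCm38.p6), and 10907 of the tested genes have one. Of the 15 largest rises, 10 have a window and 3 of them hold any of the motifs. Of the 15 largest falls, 13 have a window and 8 hold one. The share of all tested genes with any of the 4 motifs was not computed, so these counts have no background. The 4 windows below, chosen after these matches were known, show matches in genes that were high in one or the other subset. Capitals mark the match: RBPJ in Cacnb3 (chr15:98632078-98632377, plus strand), NR4A and then C/EBP in Jchain (chr5:88527848-88528147, minus strand), and C/EBP in Lyz1 (chr10:117292819-117293118, minus strand, with the match on the opposite strand) and in C3 (chr17:57228087-57228386, minus strand).
Cacnb3: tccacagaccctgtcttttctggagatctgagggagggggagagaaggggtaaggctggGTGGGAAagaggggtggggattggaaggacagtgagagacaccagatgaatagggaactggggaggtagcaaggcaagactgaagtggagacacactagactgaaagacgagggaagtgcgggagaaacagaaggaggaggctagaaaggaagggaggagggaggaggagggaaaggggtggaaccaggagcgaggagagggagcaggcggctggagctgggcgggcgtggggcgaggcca
Jchain: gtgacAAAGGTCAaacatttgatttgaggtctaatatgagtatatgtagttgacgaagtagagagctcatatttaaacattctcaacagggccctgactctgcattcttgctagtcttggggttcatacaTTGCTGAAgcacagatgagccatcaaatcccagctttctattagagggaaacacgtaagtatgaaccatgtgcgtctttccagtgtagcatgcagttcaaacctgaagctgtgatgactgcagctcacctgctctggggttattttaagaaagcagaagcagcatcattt
Lyz1: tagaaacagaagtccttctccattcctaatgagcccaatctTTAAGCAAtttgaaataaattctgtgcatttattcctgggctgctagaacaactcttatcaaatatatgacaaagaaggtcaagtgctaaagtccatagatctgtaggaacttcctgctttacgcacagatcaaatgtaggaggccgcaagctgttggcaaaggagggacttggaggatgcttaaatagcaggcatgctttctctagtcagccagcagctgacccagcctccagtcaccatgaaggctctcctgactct
C3: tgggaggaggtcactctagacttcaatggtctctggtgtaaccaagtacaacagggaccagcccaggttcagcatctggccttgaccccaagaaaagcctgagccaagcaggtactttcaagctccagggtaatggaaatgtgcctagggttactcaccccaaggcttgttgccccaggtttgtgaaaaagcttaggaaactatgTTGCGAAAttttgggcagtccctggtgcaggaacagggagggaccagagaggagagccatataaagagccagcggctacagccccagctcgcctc
The second window listed for Cacnb3, and the windows of Dtx1, Lyz2, Ccr2 and Crispld2, hold none of the 4 motifs.

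Over all called genes with a window, the RBPJ letters were in 27 of 284 genes higher in Esamhi (9.51%) and in 15 of 330 genes lower in Esamhi (4.55%), and they were in 7.16% of all 10907 tested genes with a window. The C/EBP letters were in 25 of the 284 (8.80%) and 42 of the 330 (12.7%), against 10.3% of all tested genes. The ETS-IRF letters were in 3.17% and 3.64%, against 3.0%, and the NR4A letters in 1.41% and 1.21%, against 1.19%. Among the called genes that differed by at least 2-fold, 99 higher and 162 lower with a window, the RBPJ letters were in 12.1% and 4.94%, the C/EBP letters in 12.1% and 16.7%, the ETS-IRF letters in 3.03% and 6.17% and the NR4A letters in 3.03% and 1.85%. The C/EBP share of the higher genes thus lay below that of all tested genes over all calls and above it in those of at least 2-fold. The windows are short, so these shares describe letters near the start and not binding.

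Of the 8 Notch receptor and ligand genes tested, 1 was higher and 1 lower in Esamhi (12.5% each, against 2.72% and 3.09% of all genes). Notch2, the receptor on which ESAM-high cells depend, was at 369 and 291 CPM in Esamhi and 292 and 265 CPM in Esamlo, so the subsets lay close together (log2 fold change 0.24 ± 0.31 SE, adjusted p = 0.764). Notch1 was at 6.29 and 3.84 CPM against 11.5 and 19.1 CPM and was 3.01-fold lower in Esamhi (adjusted p = 0.0471). Jag1, a Notch ligand, was at 61.3 and 39.3 CPM against 16.5 and 15.3 CPM and was 3.16-fold higher (adjusted p = 0.0448). Both calls were lost without each of the 4 libraries (adjusted p up to 0.332 and 0.334). Dll4, another ligand, was at 2.5 and 2.59 CPM against 0.966 and 0 CPM and was not called (adjusted p = 0.269).

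Of 26 genes of Notch processing and signalling, 0 were called by edgeR and 0 by DESeq2, with 3 at an unadjusted p under 0.05 (median log2 fold change -0.10). Rbpj itself was at 95.3 ± 5.3 CPM in Esamhi and 102 ± 10.4 in Esamlo (adjusted p = 0.781). Among 20 tested genes listed as Notch targets, 2 were higher and 2 lower (10% each, against 2.72% and 3.09% of all genes), with a median of -0.22. The higher ones were Dtx1, described above, and Tcf7, which encodes TCF-1 and was at 170.4 and 166 CPM against 43.2 and 34.4 CPM, 4.34-fold higher (log2 fold change 2.12 ± 0.23 SE, adjusted p = 0.0002). The lower ones were the survival gene Bcl2 (29.5 and 22.8 against 43.1 and 43.8 CPM, adjusted p = 0.0154) and Runx1 (113 and 109 against 152 and 168 CPM, adjusted p = 0.0456). Bcl2 lost its call without either Esamlo library or Esamhi library 2, and Runx1 without each of the 4 (adjusted p up to 0.16 and 0.275). Hes1, the repressor most often used as a Notch readout, was at 26 and 31.1 CPM against 32.2 and 47.6 CPM (adjusted p = 0.608). Nrarp, a feedback inhibitor of Notch, was at 1.44 and 4.41 CPM against 1.99 and 1.73 CPM (adjusted p = 0.874), and the cyclin gene Ccnd1 at 531 and 406 CPM against 277 and 219.9 CPM (adjusted p = 0.0556).

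Among 52 transcription factors of dendritic cells, 8 were higher and 10 lower in Esamhi, with a median log2 fold change of -0.01. These were 15.4% and 19.2%, against 2.72% and 3.09% of all tested genes. The smallest adjusted p was that of Irf8, which directs cDC1 and pDC development, at 83.1 and 76.1 CPM in Esamhi and 331 and 287 CPM in Esamlo, 3.88-fold lower (log2 fold change -1.96 ± 0.10 SE, adjusted p = 1.06e-06). Irf4, the related factor of cDC2, ran the other way at 421 and 348 CPM against 166 and 169 CPM, 2.29-fold higher (adjusted p = 0.0414). Etv3, an ETS-family repressor, was at 902 and 826 CPM against 439 and 423 CPM (log2 fold change 1.00 ± 0.11 SE, adjusted p = 0.000287). Etv6, the gene under study and also of the ETS family, was at 492 and 451 CPM against 426 and 512 CPM, with overlapping libraries (log2 fold change 0.01 ± 0.10 SE, adjusted p = 0.998).

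The 3 NR4A orphan nuclear receptors were all higher in Esamhi. Nr4a1 was at 5862 and 5645 CPM against 3521 and 3217 CPM (log2 fold change 0.77 ± 0.13 SE, adjusted p = 0.00286), Nr4a2 was 2.16-fold higher (adjusted p = 0.00912) and Nr4a3 2.11-fold higher (adjusted p = 0.0359). Egr2, a zinc finger factor induced by receptor signals, was at 1228 and 873 CPM against 464 and 297 CPM, 2.76-fold higher (adjusted p = 0.00977). Relb, of the alternative NF-κB pathway, and Nfatc2, activated by calcium through calcineurin, were 1.49-fold and 1.59-fold higher.

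C/EBP factors of the myeloid lineage were lower. Cebpa was at 13.3 and 16.9 CPM in Esamhi against 44.8 and 42.4 CPM in Esamlo, 2.88-fold lower (adjusted p = 0.00888). Cebpb was at 76.8 and 123 CPM against 216 and 281 CPM, 2.49-fold lower (adjusted p = 0.0087), and Cebpd was 1.87-fold lower (adjusted p = 0.0334). Id3, an inhibitor of E proteins, and Bach2, a repressor best known in lymphocytes, were 6.04-fold and 3.05-fold lower. Zeb2, Runx1, Nfil3 and Irf1 were lower by 1.72-fold, 1.44-fold, 1.4-fold and 1.27-fold. Klf4, a factor needed for a part of cDC2 (171 against 197 CPM), and Bcl6 (231 against 233 CPM) were not called. Spi1, which encodes PU.1, was at 809 against 699 CPM (adjusted p = 0.143).

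Without 1 library in turn 2 to 6 transcription factors were higher and 1 to 6 lower. Of the 18 calls, Irf8, Etv3 and Nr4a1 held without any 1 library, and 15 were lost without at least 1. Irf4, Nr4a3, Runx1 and Irf1 lost theirs without each of the 4 (adjusted p up to 0.264, 0.218, 0.275 and 0.254). Without Esamhi library 1 the call was also lost for Egr2, Nr4a2, Nfatc2, Id3, Bach2, Cebpa, Cebpb, Cebpd, Zeb2 and Nfil3. Without Esamlo library 2 it was also lost for Egr2, Nr4a2, Nfatc2, Relb, Cebpb, Zeb2 and Nfil3. Without Esamlo library 1 it was also lost for Nr4a2, Nfatc2, Cebpd and Nfil3, and without Esamhi library 2 for Id3, Cebpd and Zeb2. The largest adjusted p among these was 0.353, for Nfil3.

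**Figure D3:**
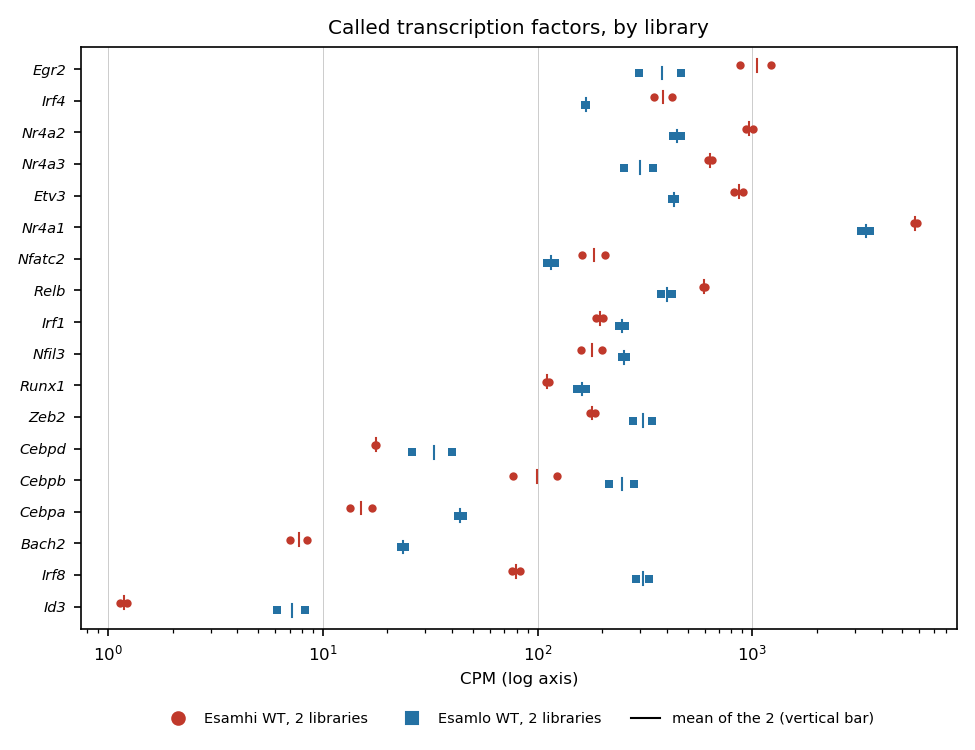
Level of the 18 called dendritic cell transcription factors in each WT library, in CPM on a log axis, ordered by log2 fold change; red circles are the 2 Esamhi libraries, blue squares the 2 Esamlo libraries and vertical bars their means. Irf8 and Id3 show the widest separation among the genes lower in Esamhi and Egr2 among those higher, while Irf1, Nfil3, Runx1 and Relb differ by less than 1.5-fold.

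Among 25 immediate-early and heat shock genes, which are induced by signalling and by the handling of cells, 5 were higher and 0 lower in Esamhi, with a median of -0.03. The 5 were 20% of the list, against 2.72% of all tested genes. Egr3 was at 444 and 377 CPM against 160.1 and 120.4 CPM, 2.92-fold higher (log2 fold change 1.55 ± 0.15 SE, adjusted p = 9.23e-05), and Ier3, an early response gene of apoptosis and growth, was 2.49-fold higher (adjusted p = 0.00591). The others were Egr2, Nr4a1 and Jun (1.24-fold, adjusted p = 0.0471). Fos and Junb, the most widely used members of this list, were at 3650.4 and 2681 CPM in Esamhi and 3729 and 2740.4 CPM in Esamlo and were not called (adjusted p = 0.946 and 0.919). Egr2 and Ier3 lost their calls without Esamlo library 2 or Esamhi library 1 (adjusted p up to 0.134 and 0.0874), and Jun without each of the 4 (up to 0.226).

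The list of 32 genes of ESAM-low cDC2 and monocyte-like cells had 0 members higher and 15 lower in Esamhi, with a median log2 fold change of -0.85; the 15 became 9 without Esamlo library 2 or Esamhi library 1, 10 without Esamlo library 1 and 11 without Esamhi library 2. Csf1r, the receptor for M-CSF, was at 271 and 258 CPM in Esamhi and 815 and 804 CPM in Esamlo, 3.06-fold lower (adjusted p = 0.0446), but its call was lost without each of the 4 libraries (up to 0.247). Cd14, the co-receptor for lipopolysaccharide, was at 15 and 22.1 CPM against 91 and 107 CPM (log2 fold change -2.42 ± 0.32 SE, adjusted p = 0.000845). Ms4a6c and Plac8 were 1.74-fold and 1.44-fold lower. Plac8 lost its call without Esamlo library 2 or Esamhi library 1 (up to 0.271). Members with high levels that were not called included Clec4a3, at 53.5 and 113 CPM against 215 and 374 CPM (adjusted p = 0.139), and Cybb, the catalytic subunit of the phagocyte oxidase, at 501 and 516 CPM against 791 and 793 CPM (adjusted p = 0.058). The 15 lower members were 46.9% of this list, against 3.09% of all tested genes. This list too was drawn up with earlier results of these data known, so its direction is not independent evidence. In bulk libraries a lower level can come from fewer cells of a type or from less RNA per cell, and these cannot be told apart.

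Defining markers of monocytes were low in both subsets. Ly6c2 was at 3.36 and 3.11 CPM in Esamhi and 6.36 and 4.58 CPM in Esamlo, and Fcgr1, which encodes CD64, at 0.533 and 1.25 CPM and 3.98 and 5.44 CPM; neither was called. Of 15 monocyte markers, 1 was higher (Nr4a1) and 6 lower in Esamhi (median -1.33), the lower ones being Ccr2, Cd14, Csf1r, Ms4a6c, Plac8 and Ace. The lower ones were 40% of the list, against 3.09% of all tested genes. The summed level of the whole list was 6823 to 6894 CPM in Esamhi and 5738 to 5818 CPM in Esamlo. Most of this was Nr4a1; without it, a gene taken out after its values were seen, the sum was 1033 to 1178 CPM in Esamhi and 2297 to 2521 CPM in Esamlo. The list's part in the results on monocyte-like genes was not tested.

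Of 12 tested Fc receptor genes, whose products bind antibody and immune complexes, 0 were higher and 3 lower (median -0.68). The 3 were 25% of the list, against 3.09% of all tested genes. Fcgr2b, the inhibitory IgG receptor, was at 20.1 and 24.5 CPM against 159 and 189.6 CPM (log2 fold change -2.97 ± 0.28 SE, adjusted p = 8.25e-05), and Fcgr3, an activating IgG receptor, at 7.24 and 6.17 CPM against 60.6 and 71.2 CPM (log2 fold change -3.29 ± 0.40 SE, adjusted p = 0.00046). Both lie on chromosome 1 (chr1:170960558-170976071 and chr1:171051169-171065915). Fcgr4, located between them, was at 35.7 and 149 CPM against 94.3 and 250.3 CPM; its 2 libraries per subset lay far apart and overlapped between subsets (adjusted p = 0.675). Fcgrt, the neonatal Fc receptor, was 1.42-fold lower (adjusted p = 0.0346), a call lost without Esamlo library 1 or either Esamhi library (up to 0.244). Fcer1g, the signalling chain shared by the activating receptors, was at 423 CPM in Esamhi and 569 CPM in Esamlo (adjusted p = 0.448).

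Of 18 tested complement genes, 2 were higher and 3 lower (11.1% and 16.7%, against 2.72% and 3.09% of all genes). C3, the central component, was at 3.84 and 3.16 CPM in Esamhi against 46.9 and 39.8 CPM in Esamlo (adjusted p = 0.0329), and Cfb, factor B of the alternative pathway, at 7.35 and 7.21 CPM against 38.1 and 22.9 CPM (adjusted p = 0.0438). Cfp, properdin, which stabilises the convertase of that pathway, was higher, at 468 and 459 CPM against 375 and 302 CPM (adjusted p = 0.0328), and so was the C5a receptor C5ar2, at 11.8 and 5.81 CPM against 1.99 and 1.26 CPM (adjusted p = 0.00847). C3 and Cfb lost theirs without each of the 4 (up to 0.233 and 0.263), Cfp without Esamlo library 2 or either Esamhi library (up to 0.301) and C5ar2 without Esamlo library 2 or Esamhi library 1 (up to 0.101).

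Chemokine receptors and genes of migration split in both directions, with 7.14% higher and 28.6% lower, against 2.72% and 3.09% of all genes. Of 28 tested, 2 were higher and 8 lower in Esamhi, with a median of -1.07, and 1 was higher and 4 or 5 were lower without 1 library in turn. Ccr7, which guides dendritic cells to T cell zones, was at 2159.7 and 2624 CPM in Esamhi and 1049.8 and 1025 CPM in Esamlo, 2.3-fold higher (log2 fold change 1.20 ± 0.18 SE, adjusted p = 0.00149). The other higher member was Gpr183. Ccr1, which binds Ccl3, Ccl5 and Ccl9, was at 6.66 and 6.9 CPM against 33.8 and 33 CPM (adjusted p = 0.0236). Ccr1 and Ccr2 lie near each other on chromosome 9 (chr9:123962126-123968692 and chr9:124101918-124109140). The purinergic receptor genes P2ry12 and P2ry14 overlap Med12l on chromosome 3. P2ry12 was at 1.12 and 2.18 CPM against 9.94 and 8.9 CPM, 5.69-fold lower, and P2ry14 at 1.81 and 1.56 CPM against 7.78 and 8.17 CPM, 4.72-fold lower. Also lower were Cx3cr1, Cxcr4 and S1pr2, the last pair named after their values were seen. Cx3cr1, Ccr1, Cxcr4 and Gpr183 lost their calls without each of the 4 libraries (up to 0.203, 0.198, 0.187 and 0.172), and S1pr2 without any but Esamlo library 1 (up to 0.301). Ccrl2, which binds chemerin, was at 786 and 815 CPM against 480.0 and 511 CPM (adjusted p = 0.0514).

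Of 33 tested chemokine and cytokine genes, 4 were higher and 6 lower in Esamhi (median -0.33). These were 12.1% and 18.2%, against 2.72% and 3.09% of all genes. Tnf was at 217 and 188 CPM against 47.8 and 48.3 CPM, 4.21-fold higher (log2 fold change 2.07 ± 0.35 SE, adjusted p = 0.00366). The CC chemokine genes on chromosome 11 differed in direction. Ccl6 and Ccl9 attract myeloid cells. Ccl6 was at 26.2 and 38.8 CPM in Esamhi against 168 and 211 CPM in Esamlo, 5.83-fold lower, and Ccl9 at 15.6 and 21.6 CPM against 143 and 132 CPM, 7.38-fold lower. Ccl3, Ccl4 and Ccl5, named after their values were seen, were 2.51-fold, 2.46-fold and 2.31-fold higher in Esamhi (adjusted p = 0.00149, 0.000596 and 0.00306). Ccl9 (chr11:83572917-83578636) lies between Ccl5 (chr11:83525778-83530518) and Ccl6 (chr11:83587886-83593087), with Ccl3 (chr11:83647843-83649378) beyond them. Of the interferon-induced ligands of CXCR3, Cxcl9 was at 14.3 and 6.64 CPM against 75.7 and 57.1 CPM, 6.36-fold lower, and Cxcl10 at 15 and 16 CPM against 59 and 50.7 CPM, 3.54-fold lower. Ccl22, a ligand of CCR4, was 2.85-fold lower (adjusted p = 0.0236), a call lost without Esamlo library 1 or either Esamhi library (up to 0.218). Osm, named after its values were seen, was 2.84-fold lower, a call lost without any but Esamlo library 1 (up to 0.159). Il1b was at 2619 and 3066 CPM against 4073 and 3975 CPM and was not called (adjusted p = 0.267).

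Of 26 tested C-type lectin and related receptor genes, 2 were higher and 7 lower, with a median of -1.47; without 1 library in turn 0 or 1 were higher and 5 lower. Of this list 7.69% were higher and 26.9% lower, against 2.72% and 3.09% of all genes. The largest fold differences were in Clec10a and Mgl2, the galactose-binding lectins MGL1 and MGL2, which lie side by side on chromosome 11 (chr11:70166623-70170836 and chr11:70130125-70137542). Clec10a was at 0.746 and 0.986 CPM in Esamhi and 45.9 and 49.8 CPM in Esamlo, 54.7-fold lower (log2 fold change -5.77 ± 0.51 SE, adjusted p = 4.63e-05), and Mgl2 at 0.692 and 0.986 CPM against 28.1 and 25.9 CPM, 31.9-fold lower (log2 fold change -4.99 ± 0.55 SE, adjusted p = 0.000223). They are close copies and can share reads. Clec7a, which encodes the beta-glucan receptor dectin-1, was at 356 and 379 CPM against 1142 and 1127 CPM (log2 fold change -1.62 ± 0.22 SE, adjusted p = 0.000975). Clec4e, which encodes Mincle, was 4.77-fold lower (adjusted p = 0.0199). Ly75, which encodes DEC-205, was higher, at 42.7 and 42.3 CPM against 15.7 and 10.9 CPM (adjusted p = 0.0157); the Dec205 libraries had 220.3 CPM. Clec4e and Ly75 lost their calls without Esamlo library 2 or either Esamhi library (up to 0.172 and 0.165).

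Of 22 tested genes of Toll-like receptors and their adaptors, 1 was higher and 4 lower in Esamhi (median -0.30). These were 4.55% and 18.2%, against 2.72% and 3.09% of all genes. Tlr11 and Tlr12 detect profilin of apicomplexan parasites. Tlr11 was at 20.1 and 15 CPM in Esamhi against 47.2 and 40.1 CPM in Esamlo, 2.49-fold lower, and Tlr12 at 2.93 and 1.4 CPM against 11.8 and 8.76 CPM, 4.77-fold lower. Tlr3, the sensor of double-stranded RNA, was 2.5-fold lower and Cd180, a regulator of TLR4, 1.9-fold higher, and these calls were lost without each of the 4 libraries (up to 0.205 and 0.15). Tlr7, the sensor of single-stranded RNA, was at 121 and 155 CPM against 69.7 and 94.3 CPM (adjusted p = 0.484). It was called higher by edgeR with only the 4 libraries of the comparison (adjusted p = 0.0179). Of 23 tested scavenger and phagocytic receptor genes, 0 were higher and 5 lower (21.7%, against 3.09% of all genes, median -0.49). Among them, Scarb1, a receptor for high-density lipoprotein, was at 73.1 and 72.5 CPM against 163 and 156 CPM (log2 fold change -1.13 ± 0.15 SE, adjusted p = 0.000722). Axl, a receptor kinase for apoptotic cells, was at 3.41 and 15.5 CPM against 57.7 and 52.7 CPM (adjusted p = 0.00692), with a wide gap between the 2 Esamhi libraries.

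Of 27 tested genes of costimulation and maturation, 9 were higher and 3 lower (33.3% and 11.1%, against 2.72% and 3.09% of all genes), with a median of 0.39. Fscn1, the actin-bundling protein of dendrites, was at 325 and 427 CPM against 151 and 103 CPM, 2.95-fold higher (adjusted p = 0.00579). Socs2, a feedback inhibitor of cytokine signals, was at 28.8 and 34.5 CPM against 11.5 and 8.3 CPM (log2 fold change 1.67 ± 0.25 SE, adjusted p = 0.00161), and Cd200, an inhibitory ligand, at 26.4 and 36.2 CPM against 17.2 and 12.6 CPM. Ccr7 and Relb were described above, and Cd274 (PD-L1), Icosl, Traf1 and Tmem123, named after their values were seen, were 1.57-fold, 1.35-fold, 1.45-fold and 1.62-fold higher. Lower were Socs3 (2.41-fold), the nectin-like ligand Pvr (1.96-fold) and the inhibitory receptor Btla (1.53-fold). The classical costimulatory genes, named after their values were seen, did not pass the test: Cd80 was at 176 against 109 CPM (adjusted p = 0.076), Cd86 at 187 against 143 CPM (adjusted p = 0.221) and Cd40 at 97.4 against 94.3 CPM (adjusted p = 0.965). Without Esamlo library 2 there were 5 members higher and 0 lower, and without each of the others 7 or 8 higher and 1 lower. Fscn1 lost its call without library 2 of either subset, Relb and Cd274 without Esamlo library 2, and Icosl without each of the 4 (up to 0.0912, 0.0803, 0.0517 and 0.24). Socs3 lost its call without either Esamlo library or Esamhi library 1, Pvr without Esamlo library 2 or either Esamhi library, and Btla without either Esamlo library or Esamhi library 2 (up to 0.216, 0.23 and 0.216).

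The main MHC class II genes were not called. H2-Ab1 was at 12699 ± 256 CPM in Esamhi and 14313 ± 409.9 in Esamlo, H2-Aa at 9361 ± 211 and 10880.4 ± 546, and Cd74, the invariant chain, at 28279 ± 400.4 and 32221 ± 208 CPM, and their regulator Ciita at 878 ± 74.3 and 826 ± 17.4 CPM (adjusted p = 0.387, 0.215, 0.294 and 0.768). Of the 18 genes on the list, 2 were higher and 3 lower (median -0.18), or 11.1% and 16.7%, against 2.72% and 3.09% of all genes. H2-Eb2, a nonclassical beta chain, was at 213 and 242 CPM against 98.4 and 81 CPM (log2 fold change 1.34 ± 0.16 SE, adjusted p = 0.000418), and H2-Ob, part of the H2-O inhibitor of peptide loading, at 523 and 525 CPM against 381 and 368 CPM (log2 fold change 0.49 ± 0.08 SE, adjusted p = 0.0029). H2-DMa, part of the H2-M complex that loads peptide, was lower at 573 and 555 CPM against 747 and 751 CPM (adjusted p = 0.0243), as were Ctss, the protease that trims the invariant chain (1.6-fold, adjusted p = 0.000223), and the endopeptidase Lgmn (2.01-fold, adjusted p = 0.0167). H2-DMa lost its call without each of the 4 libraries and Lgmn without Esamlo library 2 or Esamhi library 1 (up to 0.147 and 0.203). H2 genes resemble one another and can share reads. Of the list of MHC class I presentation 4.55% were higher and 9.09% lower, against 2.72% and 3.09% of all genes. In MHC class I presentation 1 of 22 genes was higher (Cd1d1, 2.09-fold) and 2 were lower (Canx and Pdia3, 1.28-fold and 1.29-fold), with a median of 0.01; Cd1d1 lost its call without Esamlo library 2 or Esamhi library 1, Canx without Esamlo library 2 or either Esamhi library and Pdia3 without each of the 4 (up to 0.0857, 0.382 and 0.134).

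Lysosomal genes were lower in Esamhi where they differed. Of 28 tested, 0 were higher and 9 lower (32.1%, against 3.09% of all genes), with a median of -0.36, and the 9 became 4 without Esamhi library 1 and 5 without Esamlo library 2. Psap, the precursor of the saposins that help break down sphingolipids, was at 1861 and 1763 CPM in Esamhi and 4002 and 4968 CPM in Esamlo (log2 fold change -1.31 ± 0.23 SE, adjusted p = 0.00418). Npc2, which moves cholesterol out of lysosomes, was at 96.9 and 102 CPM against 226 and 198 CPM (log2 fold change -1.09 ± 0.10 SE, adjusted p = 7.66e-05). Cst3, cystatin C, was 1.77-fold lower (adjusted p = 0.00346; 0.0526 without Esamhi library 1). Lgmn and Ctss also belong to this list, and Cstb, Lamp1 and Lamp2, named after their values were seen, were 1.59-fold, 1.37-fold and 1.48-fold lower. Lgmn, Cstb and Lamp1 lost their calls without Esamlo library 2 or Esamhi library 1 (up to 0.203, 0.238 and 0.118), and Lamp2 without each of the 4 (up to 0.212).

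Among 22 tested antibacterial and granule protein genes, 3 were higher and 8 lower (median -0.63), the lysozymes among the lower; without 1 library in turn 1 was higher and 3 or 4 lower, and with library size only 1 was higher. Lgals3, galectin-3, was at 99.6 and 146 CPM against 238 and 268 CPM (log2 fold change -1.04 ± 0.16 SE, adjusted p = 0.00163), and Lgals1, galectin-1, was 3.02-fold lower (adjusted p = 0.0192), a call lost without each of the 4 libraries (up to 0.156). Of the subunits of the phagocyte oxidase, Ncf1 and Ncf4 were higher, Ncf1 at 517 and 491 CPM in Esamhi against 299 and 279 CPM in Esamlo (adjusted p = 0.000106) and Ncf4 at 165 and 173 CPM against 108 and 109 CPM (adjusted p = 0.0014). Its membrane subunits were not called, with Cybb at 501 and 516 CPM against 791 and 793 CPM (adjusted p = 0.058) and Cyba at 568 against 572 CPM (adjusted p = 0.982). Gsr, glutathione reductase, was at 100.5 and 116 CPM against 304 and 327 CPM, 2.91-fold lower (log2 fold change -1.54 ± 0.14 SE, adjusted p = 4.63e-05). On the redox list as a whole, 2 of 19 were higher and 2 lower (10.5% each). Of the antibacterial and granule list 13.6% were higher and 36.4% lower. The shares over all tested genes were 2.72% and 3.09%.

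In glycolysis 0 of 19 tested genes were higher and 5 lower (26.3%, against 3.09% of all genes, median -0.24). Pfkp, the platelet-type phosphofructokinase, was at 43.4 and 45.8 CPM against 79.5 and 82.6 CPM (log2 fold change -0.86 ± 0.11 SE, adjusted p = 0.00067) and kept its call without any 1 library. Hk3, Tpi1, Aldoa and Pgam1 were 2.83-fold, 1.52-fold, 1.43-fold and 1.45-fold lower and lost their calls without at least Esamlo library 2 and Esamhi library 1, in Hk3 also without Esamhi library 2 and in Tpi1 and Aldoa also without Esamlo library 1 (up to 0.188, 0.171, 0.243 and 0.0572). In oxidative phosphorylation 0 of 39 were higher and 3 lower (Ndufa9, Uqcrb and Cycs; 7.69% of the list, against 3.09% lower and 5.81% called in either direction over all genes), with a median of -0.25, and the calls of Ndufa9 and Uqcrb were lost without each of the 4 libraries and that of Cycs without any but Esamlo library 1 (up to 0.118, 0.316 and 0.0923). On the list of cholesterol and lipid handling 6.25% of the genes were higher and 3.125% lower, against 2.72% and 3.09% of all genes. On that of leukotriene and prostaglandin synthesis 17.6% were lower. Plin2, which coats lipid droplets, was at 21.7 and 19.9 CPM in Esamhi and 85.2 and 105 CPM in Esamlo, 4.56-fold lower (log2 fold change -2.19 ± 0.16 SE, adjusted p = 1.38e-05). Srebf2, the master regulator of cholesterol synthesis, was 1.75-fold higher (adjusted p = 0.00503; up to 0.0673 without Esamlo library 2 or Esamhi library 1), and the list of cholesterol and lipid handling had 2 of 32 genes higher and 1 lower, with 0 to 3 higher without 1 library in turn. Tbxas1, thromboxane synthase, was at 1.7 and 3.58 CPM against 19 and 15.4 CPM (log2 fold change -2.70 ± 0.38 SE, adjusted p = 0.00106), and Hpgd, which breaks down prostaglandins, at 18.5 and 18.7 CPM against 72.5 and 78.1 CPM (adjusted p = 0.00412; 0.0574 without Esamhi library 1). Of the 17 tested genes of leukotriene and prostaglandin synthesis, 0 were higher and 3 lower, which became 1 without Esamhi library 1 and 2 without each of the others. Ltb4r1, a receptor for leukotriene B4, was at 5.38 and 4.67 CPM against 33.6 and 27.4 CPM (adjusted p = 0.0471) and lost its call without each of the 4 (up to 0.274).

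Of 32 cell cycle genes, 0 were called by edgeR and 0 by DESeq2, with 1 at an unadjusted p under 0.05 (median 0.18). Of 39 ribosomal protein genes, 0 were higher and 2 lower (Rpl8 and Rps4x; 5.13%, near the 5.81% of all genes), with a median of -0.24, and both calls were lost without each of the 4 libraries (up to 0.253 and 0.189). Of 40 type I interferon response genes, 3 were higher and 5 lower, with a median of 0.14; without 1 library in turn 1 or 2 were higher and 0 to 3 lower, the 0 without Esamhi library 2. Usp18, which damps the interferon receptor, was 1.75-fold higher (log2 fold change 0.81 ± 0.12 SE, adjusted p = 0.00196), while Gbp3 and Iigp1, GTPases against intracellular microbes, were 2.62-fold and 5.22-fold lower. Iigp1 lost its call without library 2 of either subset and Gbp3 without Esamlo library 2 or either Esamhi library (up to 0.0673 and 0.109). Among growth factor and cytokine receptors, 1 of 32 was higher (Il21r, 1.56-fold) and 4 were lower, which became 1 without Esamhi library 2 and 2 without each of the others; Ifnar1, a chain of the type I interferon receptor, lost its call without each of the 4 (up to 0.264). Il21r lost its call without any but Esamlo library 2 (up to 0.165). Il13ra1, which binds interleukin-13, was at 99.9 and 86 CPM against 217 and 225 CPM (log2 fold change -1.25 ± 0.18 SE, adjusted p = 0.0012). Of the interferon list 7.5% were higher and 12.5% lower, and of the receptor list 3.125% and 12.5%. The shares over all tested genes were 2.72% and 3.09%. Flt3, the receptor that sustains dendritic cells, named after its values were seen, was not called, at 445 against 499 CPM (adjusted p = 0.444). Kit was not called either, at 826 against 544 CPM (adjusted p = 0.329). With only the 4 libraries of the comparison edgeR called Kit higher (adjusted p = 0.00326).

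**Figure D4:**
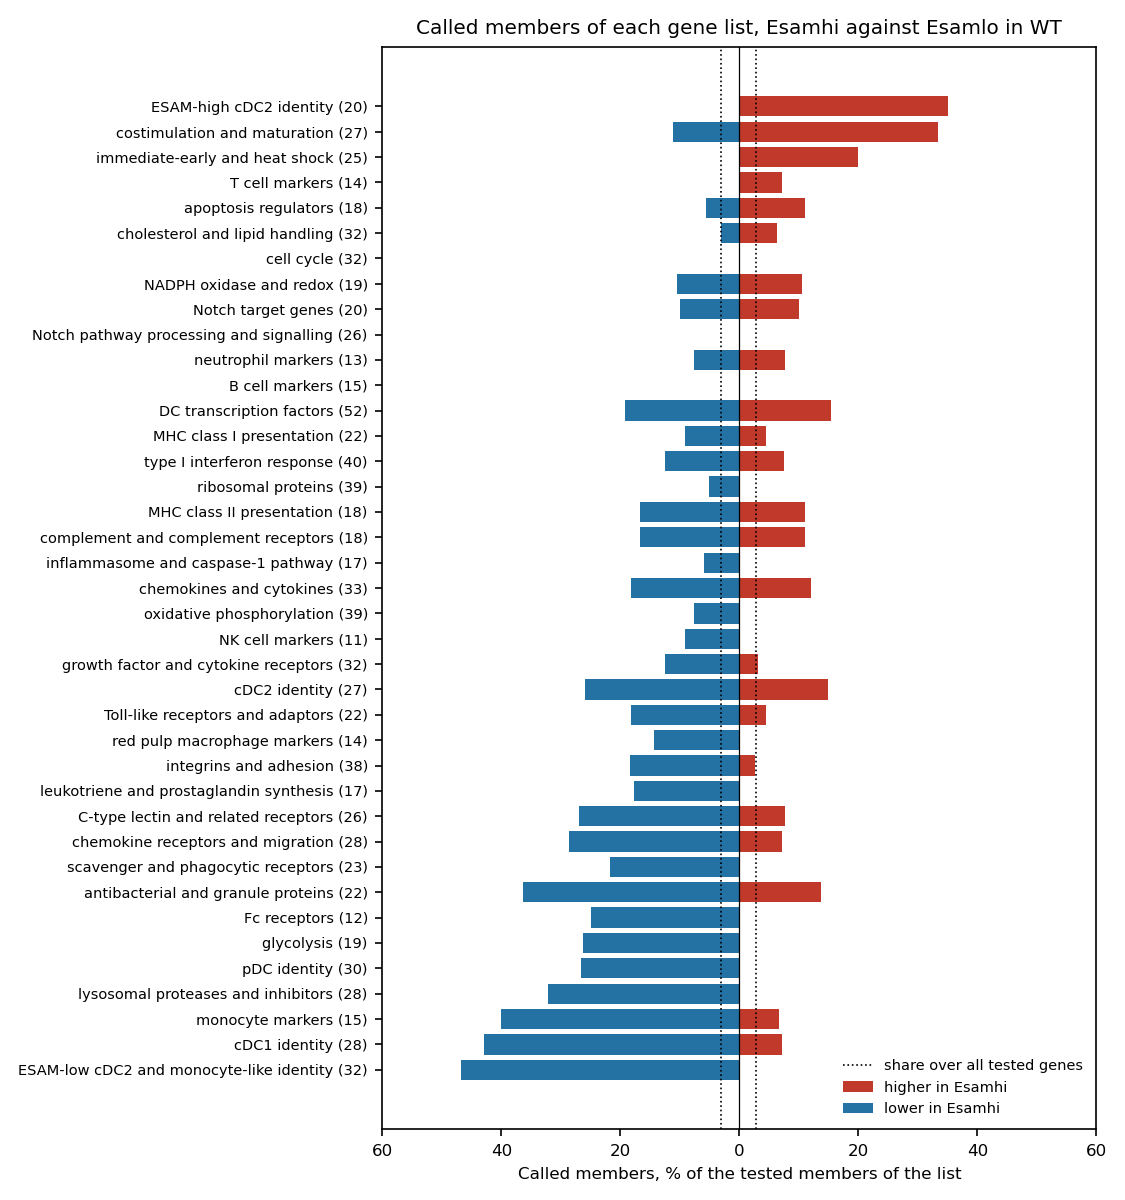
Called members of each gene list with at least 10 tested genes, as a percentage of its tested members (number in brackets), higher in Esamhi to the right (red) and lower to the left (blue); the dotted lines mark 2.72% and 3.09%, the shares over all tested genes. The ESAM-high identity list (7 of 20) and costimulation and maturation (9 of 27) reach furthest to the right, the ESAM-low (15 of 32) and cDC1 identity lists (12 of 28) furthest to the left.

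Markers of other cell types were examined because a sort can hold some of them. Of the cDC1 list 7.14% were called higher and 42.9% lower, against 2.72% and 3.09% of all tested genes. Of 28 cDC1 identity genes, 2 were higher and 12 lower in Esamhi (median -1.12), with 9 to 12 lower without 1 library in turn; the 2 higher became 0 without Esamlo library 2 and 1 without either Esamhi library. The defining cDC1 genes were low in both subsets: Xcr1 was at 16.6 and 11.8 CPM in Esamhi and 28.9 and 33.1 CPM in Esamlo (adjusted p = 0.0986) against 1252 CPM in Dec205, and Clec9a at 5.17 and 0.623 CPM in Esamhi and 10.5 and 6.51 CPM in Esamlo, against 222 CPM in Dec205. The gap between Esamlo and Esamhi, as a percentage of the Dec205 level, was 1.34% for Xcr1. For the 12 called genes it ran from 3.68% (Ppt1) to 16.3% (Cxcl9), with 6.17% for Irf8, 3.93% for Naaa and 7.09% for Cadm1. Naaa, an amidase of endocannabinoid-like lipids, was at 56.3 and 34.9 CPM against 149 and 138 CPM (log2 fold change -1.66 ± 0.22 SE, adjusted p = 0.00076). Wdfy4, which is required for cross-presentation by cDC1, was higher in Esamhi, at 970.1 and 750.4 CPM against 599 and 479 CPM (adjusted p = 0.0313), and the Dec205 mean of 781 CPM lay between the 2 Esamhi libraries; its call was lost without Esamlo library 2 or Esamhi library 1 (up to 0.311). Cadm1 lost its call without the same libraries (up to 0.149). The summed level of the cDC1 list was 3129 to 3294 CPM in Esamhi and 3484 to 3642 CPM in Esamlo. The part of cDC1 RNA in these differences was not tested.

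Of 30 pDC identity genes, 0 were higher and 8 lower in Esamhi (26.7% lower, against 3.09% of all genes, median -0.58). The 8 became 4 without either Esamhi library, 5 without Esamlo library 1 and 6 without Esamlo library 2. Bst2 and Cd300c lost their calls without each of the 4 and Cd209d without any but Esamlo library 2 (up to 0.298, 0.251 and 0.242). Zeb2 lost its call without any but Esamlo library 1 (up to 0.234). Siglech, which defines pDC, was at 0.746 and 0.882 CPM in Esamhi and 6.82 and 5.84 CPM in Esamlo (log2 fold change -2.95 ± 0.29 SE, adjusted p = 9.23e-05), and this gap was 0.0994% of the pDC level of 5548 CPM. Zeb2, which pDC and cDC2 both express, had a gap of 33.2%. The summed list was at 1503 to 1585 CPM in Esamhi and 1939 to 2069 CPM in Esamlo, and its part in these differences was not tested. Ccr2, Clec10a and Clec12a, named above among the genes lower in Esamhi, averaged 297, 244 and 567 CPM in pDC.

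Markers of lymphocytes, macrophages and other cells were counted in the same way. Here 1 call is 7.14% of the T cell list and 9.09% of the NK cell list, near the 5.81% of all tested genes. Of the plasma cell list 25% were called higher, of the red pulp macrophage list 14.3% lower and of the neutrophil list 7.69% each way. Over all 13790 tested genes, 2571 had an unadjusted p under 0.05 in edgeR's test. DESeq2 called 1404 of them, 657 lower. Of 15 B cell markers, 0 were called by edgeR, 0 by DESeq2 and 0 had an unadjusted p under 0.05; the summed list was at 545 to 547 CPM in Esamhi and 456 to 642 CPM in Esamlo. With only the 4 libraries of the comparison in the fit 1 was called higher and 4 lower, and with the 8 WT libraries 1 was lower. Among 14 T cell markers 1 was higher (Tcf7), Cd3e was at 5.38 and 1.71 CPM against 6.53 and 3.98 CPM, and the summed list, to which Tcf7 contributes, was at 241 to 247 CPM against 96.6 to 123 CPM. Among 11 tested NK cell markers 1 was lower (Klrk1), and Ncr1, which defines NK cells, was at 0.373 and 0.571 CPM against 2.05 and 0 CPM. Of 8 plasma cell markers 2 were higher (Jchain and Irf4), and Sdc1, which encodes CD138, was at 2.98 and 2.7 CPM against 1.88 and 2.06 CPM. Among 14 red pulp macrophage markers 2 were lower (Axl and Trf), 9 had an unadjusted p under 0.05 and 3 were called lower by DESeq2, with a median of -1.18; Trf lost its call without each of the 4 libraries (up to 0.114). Spic, the factor of those macrophages, was at 17.8 and 28.4 CPM against 17.4 and 26.8 CPM, and C1qa at 12.3 and 67.1 CPM against 100.3 and 169.5 CPM, with the 2 Esamhi libraries far apart; the summed list was at 578 to 901 CPM against 962 to 1325 CPM. Neutrophil markers had 1 of 13 higher (Mmp9, a call lost without Esamlo library 2 or Esamhi library 1, up to 0.0857) and 1 lower (Camp, 0.107 and 0.104 against 2.1 and 1.59 CPM, a call lost without each of the 4 libraries, up to 0.266). Of 8 erythroid and platelet markers, 0 were called by edgeR or DESeq2 and 0 had an unadjusted p under 0.05. Of 7 stromal and endothelial markers, 0 were called by edgeR, 1 was called by DESeq2 and 2 had an unadjusted p under 0.05. The part of these cells in the results was not tested.

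The same comparison in the CKO genotype used 4 libraries that the WT comparison did not, though both came from the same fit and share its estimates of spread. There, 416 genes differed (3.02%), 211 higher (1.53%) and 205 lower (1.49%) in Esamhi. Of the 375 genes higher in WT, 371 had the same sign in CKO (98.9%) and 177 were called there (47.2% of the WT calls and 83.9% of the CKO calls); of the 426 lower in WT, 420 had the same sign (98.6%) and 164 were called (38.5% and 80%). None was called in the opposite direction. The share of all tested genes with the same sign in both genotypes was not computed, so the same-sign shares have no background. The median log2 fold change of the 375 was 0.81 in WT and 0.61 in CKO, and that of the 426 was -1.03 in WT and -0.66 in CKO; the genes were chosen by their WT values. Esam differed by 3.81 on the log2 scale in CKO, Crispld2 by 4.78, Ryr3 by 4.26, Dtx1 by 1.99, Ccr2 by -3.79 and Irf8 by -1.62, each called. Lyz2 was at 735 CPM in Esamhi CKO and 2860.0 CPM in Esamlo CKO, a log2 fold change of -1.96 (adjusted p = 0.00584). For Tnf the CKO value was 0.73 (adjusted p = 0.407) and for Hpgd -0.20 (adjusted p = 0.943).

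Whether the difference between the subsets was itself different in CKO was tested as an interaction. It was called for 0 of 13790 genes by edgeR, with 346 (2.51%) at an unadjusted p under 0.05, and for 8 genes by DESeq2. A call in WT without one in CKO, as for Tnf and Hpgd, is thus not shown to differ between the genotypes. The sex-linked genes differed between the genotypes and were not called between the subsets: the Y-linked gene Ddx3y ranged from 161 to 222 CPM over the WT libraries and from 0.0565 to 0.901 CPM over the CKO libraries, while Xist, the X inactivation transcript, named after its values were seen, ranged from 0 to 1.28 CPM and from 296 to 355 CPM. Genotype and these markers of sex cannot be told apart in the 8 libraries. Within WT, Ddx3y was at 219.7 and 219 CPM in Esamhi and 161 and 222 CPM in Esamlo (adjusted p = 0.846).

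**Figure D5:**
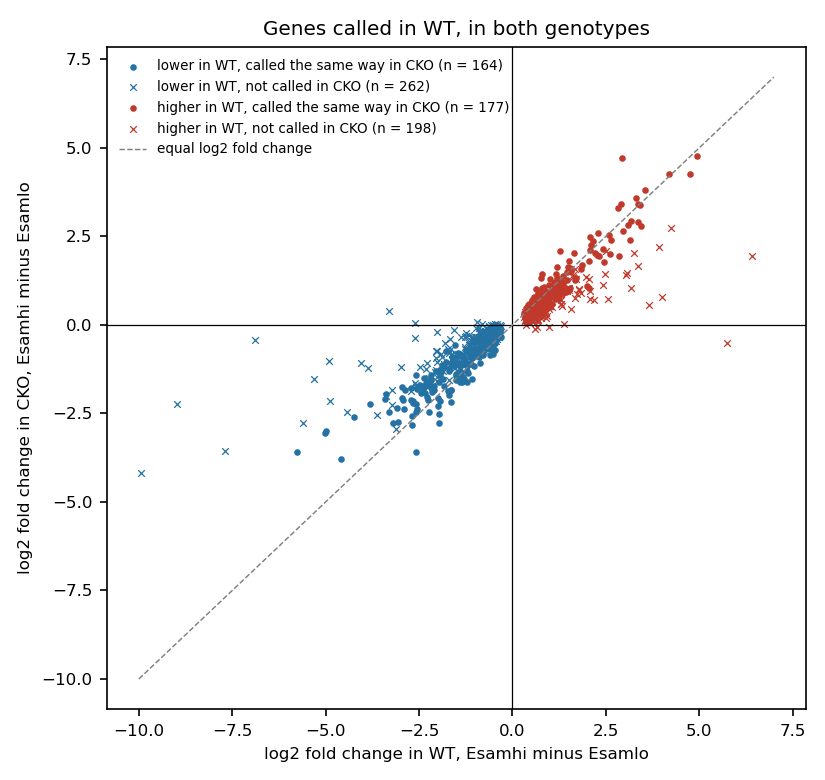
Log2 fold change, Esamhi minus Esamlo, of the 801 genes called in WT (x axis) and their value in CKO (y axis); circles are called the same way in CKO (177 higher in red, 164 lower in blue), crosses are not called there, and the dashed line marks equal values. Nearly all points lie in the upper right or lower left, 371 of 375 and 420 of 426; the crosses at the far left and right are genes with few counts.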

How the data were processed

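RNA was measured in 16 libraries of sorted mouse spleen dendritic cells, made with a SMART-seq v4 kit, per the labels' protocols; that kit has no molecular identifiers and does not mark strand. The authors deposited 1 table of raw counts per gene with Entrez identifiers. Per the submitters' processing notes, bcl2fastq, Trimmomatic 0.36 and Bowtie2 2.2.9 were used with mm10; their roles, the counting tool, the annotation and the strand setting were not given in the sources used here. Reads from overlapping genes or close copies therefore cannot be told apart. Libraries were assigned to groups by their titles.

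Counts of all 16 libraries (8 groups of 2) were fitted in edgeR 4.0.16 (R 4.3.3, limma 3.58.1) with TMM scaling, filterByExpr and the robust quasi-likelihood F test, which leaves 8 residual degrees of freedom. Contrasts were Esamhi minus Esamlo in WT, the same in CKO, and their difference; p-values were adjusted over 13790 genes by Benjamini-Hochberg and called at 0.05. Mean log2 CPM values use a prior count of 2, and fold changes are those of the fit at edgeR's default. CPM use TMM-scaled library sizes, and SE were derived from F, which takes in the spread between libraries of a group. In counts simulated for the WT comparison over 13789 genes, 89.4% of 4-fold, 49.3% of 2-fold and 5.97% of 1.5-fold changes were recovered, with 6 false calls. The changes were placed only in genes above a minimum expected count, so these shares do not cover low genes.

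The members and the 44 gene lists were chosen with earlier results of these data known; 3 of the 1034 list entries have no row in the table. Named genes are Esam, Lyz2, the 15 largest called rises and falls above a mean log2 CPM of 3 and without overlap, up to 6 called and 3 uncalled members per list, and any member of the Notch receptor, Notch target, transcription factor and other-cell lists. Symbols and positions came from RefSeq tables (GRCm38.p6) matched by gene identifier for 13773 of the tested genes. Alternatives were DESeq2 size factors, library size only, DESeq2 1.42.0, no filter, fewer libraries in the fit, a test against 1.5-fold, a replicate block and leaving out each library. Some members of the lists are counted but not reported here by name.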

Additional observations from a re-analysis of the deposited data

How the results depend on the processing

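The count of 801 genes in WT was 808 with DESeq2 size factors, 828 with library size only, 780 with no filter and 589 with only the 8 WT libraries. It was 1404 with DESeq2, 1573 with only the 4 libraries of the comparison, 187 when tested against a 1.5-fold change and 309 to 510 without 1 library in turn, where the lone library of a group is assumed to vary like the other groups. Of the 159 named genes called, 73 kept the call without each library and 86 lost it at least once; none of the named genes turned its direction where it was called. With only the 4 libraries of the comparison 47 named genes gained a call and 5 lost it. The share of higher calls was 46.8%, with 40.3% under library size only and 51.0% under DESeq2 size factors. In CKO the count of 416 was 781 with DESeq2, 1298 with only the 4 libraries, 74 against 1.5-fold and 89 to 185 without 1 library in turn. The interaction count of 0 was 8 with DESeq2, 3 with only the 8 Esamhi and Esamlo libraries, 1 with no filter and 0 to 1 without 1 library in turn; the call of 1 came without Esamlo WT library 2. The cause of these changes was not tested.

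With a replicate block the counts were 840 in WT, with 722 of the 801 calls kept, 466 in CKO and 0 for the interaction. Of the named genes 11 gained a call under the block (adjusted p from 0.000728 to 0.0484), among them Cybb, Xcr1, C1qa, Clec4a3 and Zbtb46, and 12 lost it (0.0521 to 0.0694), among them Notch1, Irf4, Cebpd, Cfb, Camp, Fcgrt, Cdhr3, Canx, Uqcrb and Ltb4r1. Deviations of same-numbered Esamlo and Esamhi WT libraries correlated at 0.158 and other WT pairs at 0.0392 to 0.0835, and CKO pairs correlated at 0.0237 to 0.158. The labels tie nothing else to the number. Depth limits the low genes: 3 counts equal 0.156 to 0.199 CPM in the 4 WT libraries, and changes of 1.5-fold were seldom recovered in simulated counts.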
